A study of Mus musculus with 3 samples.

Results

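The genes examined here make the cofactor tetrahydrobiopterin (BH4) or use it to make nitric oxide (NO). The 9 members were Gch1, Gchfr, Pts, Spr and Qdpr of the BH4 pathway, and Nos1, Nos2, Nos3 and Nostrin of NO synthesis, out of 19938 named genes. They were selected on measured values, since Gch1 was far higher in replicate 3 than in replicates 1 and 2, and its partners were then taken from the pathway to see whether they moved with it. Each member was measured by 1 of the 35557 probe sets of the array, named through the platform annotation as a probe set with a single gene symbol. The replicate 3 values of Gch1 are therefore a description and carry no test.

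The RNA came from endothelial cells of the kidney at embryonic day 15.5. All 3 samples were from CD-1 mice with the transgene Tg(TIE2GFP)287Sato, in which the Tek (Tie2) promoter drives green fluorescent protein. GFP-positive cells were sorted from pools of 4 to 5 dissociated kidneys, and each pool was hybridized to its own Affymetrix Mouse Gene 1.0 ST array. The samples form a single group with no second condition among the samples analysed, and the labels name no litter for any pool. The p-values below therefore rest only on spread between these 3 arrays. This is the spread of the probe set itself and, through limma, that of other probe sets. The Tek promoter is also known to be active in some blood-forming cells and macrophages, so the sort can hold more than endothelium.

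BH4 is built from GTP. GTP cyclohydrolase, the product of Gch1, carries out the first and usually rate-limiting step, and Pts and Spr complete the cofactor. Oxidised cofactor is returned to BH4 through Pcbd1 and Qdpr. All 3 NO synthases need BH4, and when it is short the endothelial enzyme can produce superoxide in place of NO. In endothelium Gch1 is known to be induced by inflammatory cytokines, often together with Nos2 in other cells.

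Values are log2 values as deposited, and a raw expression level is the same value on the linear scale. The study's filter for low expression, a raw level of 100 (6.64 on the log2 scale), served as the level against which means were tested. A gene is called above or below it by limma with an adjusted p under 0.05. A gene with several probe sets counts as above where any of them passed, and as below where all did. In the whole series 41.6% of named genes were called above and 41.6% below, and 47.3% reached 100 in all 3 arrays. With a spread pooled over all probe sets, 7180 of the 19938 named genes were above and 6474 below. Each probe set binds its target with its own strength, so no gene's level is set against another's.

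The probe set of Gch1 had a very different value on 1 of the 3 arrays. Its log2 value was 12.18 in replicate 3, against 6.54 in replicate 2 and 7.40 in replicate 1. On the linear scale this was a raw level of 4633 in replicate 3, against 93 and 169 in replicates 2 and 1, so that replicate 2 lay under the filter. Replicate 3 exceeded the mean of the other two replicates by 5.21 on the log2 scale, a 37-fold difference, while replicates 2 and 1 differed from each other by -0.86 (replicate 2 minus replicate 1). The mean of the 3 arrays, 8.71 ± 3.04 (SD, n = 3), describes none of them. A single probe set reads the gene, so no second probe set on the same array could be set beside it.

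The 250 bases before the start of Gch1 are shown because this gene alone among the members was past 2-fold, beside those of Gchfr, which encodes its feedback regulator and did not share it. Capitals mark matches to 3 short motifs on either strand. The CCAAT box is spelled by its name and reads ATTGG when it lies on the other strand. The core of a cAMP response element was searched as TGACG, which on the other strand appears as CGTCA. The GC box was searched as GGGCGG, and its reverse complement is written CCGCCC. The sequences are RefSeq's for build GRCm38.p6, written 5′ to 3′ on the strand of the gene, from chr14:47189414-47189663 on the minus strand for Gch1 and chr2:119167538-119167787 on the plus strand for Gchfr.
Gch1: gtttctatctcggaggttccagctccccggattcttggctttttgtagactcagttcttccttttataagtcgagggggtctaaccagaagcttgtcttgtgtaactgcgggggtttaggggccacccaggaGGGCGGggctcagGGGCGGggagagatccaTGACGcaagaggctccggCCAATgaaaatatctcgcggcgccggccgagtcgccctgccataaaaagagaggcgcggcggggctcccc
Gchfr: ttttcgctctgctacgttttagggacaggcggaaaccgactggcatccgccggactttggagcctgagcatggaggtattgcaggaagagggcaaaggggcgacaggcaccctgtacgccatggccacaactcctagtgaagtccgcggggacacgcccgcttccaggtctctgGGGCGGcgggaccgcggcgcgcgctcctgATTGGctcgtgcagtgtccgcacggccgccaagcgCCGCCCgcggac
In Gch1 the core of the response element begins at position -88 from the start and the CCAAT box at -70, with GC boxes at -118 and -105. None of these matches overlapped another.

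The promoter table held 7 of the 9 members, without Nos2 and Nos3. A CCAAT box was found in Gch1, Gchfr and Qdpr, and in 33.8% of all 32851 promoter windows of the same length. The TGACG core was found in Gch1, Nos1 and Nostrin and in 17.8% of the windows, and a GC box in Gch1, Gchfr, Pts, Spr and Qdpr and in 32.7%. A STAT site, TTCNNNGAA, was in none of the 7 members and in 7.02% of the windows. Such matches are descriptions of the letters and were not tested against expression. The motifs were chosen with the expression values known.

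**Figure D1:**
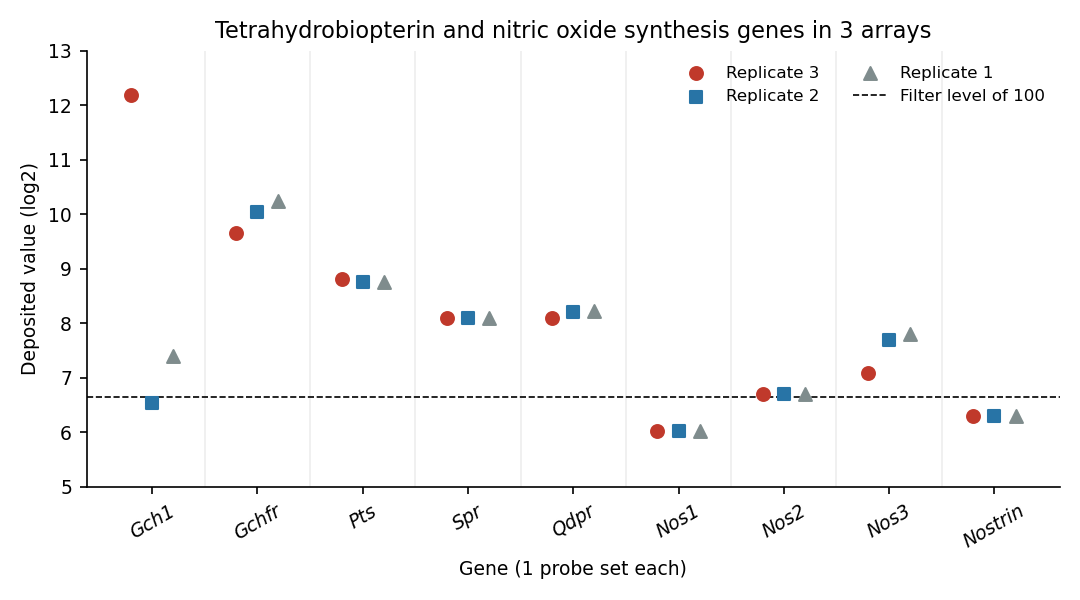
Deposited log2 values of the 9 members in replicate 3 (red circles), replicate 2 (blue squares) and replicate 1 (grey triangles), with the filter level of 100 as a dashed line at 6.64. Gch1 lies at 12.18 in replicate 3 against 6.54 and 7.40 in the others, and no other member has replicates more than 1 log2 unit apart.

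Gchfr, whose protein binds GTP cyclohydrolase and lets BH4 inhibit it, was slightly lower in replicate 3 on the deposited values. It measured 9.65 in replicate 3, against 10.05 and 10.25 in replicates 2 and 1, and replicate 3 was the lowest of the 3. The difference of -0.50 (replicate 3 minus the mean of the others) is a 1.42-fold lower level. It shrank to -0.15 after quantile normalization and to -0.20 after subtracting the median difference of probe sets of like level. Over all arrays Gchfr averaged 9.98 ± 0.31 (SD, n = 3) and was above the level (limma, adjusted p = 0.0024).

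The next 2 enzymes of synthesis were nearly constant on the deposited values. Pts, which encodes 6-pyruvoyl-tetrahydropterin synthase, measured 8.82 in replicate 3 and 8.75 in both other replicates, and was above the level (limma, adjusted p = 1.32e-04). Spr, which encodes sepiapterin reductase for the last step, was at 8.10 in every replicate and was also above (limma, adjusted p = 1.73e-05). The replicate 3 differences were 0.07 and 0.00, so neither gene followed Gch1 on the deposited values. After quantile normalization the differences were 0.49 for Pts and 0.35 for Spr, both short of 2-fold.

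Qdpr encodes dihydropteridine reductase, which regenerates BH4 after each round of use. It measured 8.10 in replicate 3, against 8.21 and 8.23 in replicates 2 and 1, with a mean of 8.18 ± 0.07 (SD, n = 3) above the level (limma, adjusted p = 6.68e-04). Its replicate 3 difference of -0.12 turned to 0.23 after quantile normalization.

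Endothelial NO synthase, encoded by Nos3, was also lowest in replicate 3. It measured 7.08 in replicate 3, against 7.70 and 7.80 in replicates 2 and 1, and all of these lay over 100. The replicate 3 difference was -0.67, a 1.59-fold lower level, and its direction was the same under every processing tried. With a mean of 7.53 ± 0.39 (SD, n = 3), Nos3 narrowly missed the call (limma, adjusted p = 0.0503). It was above the level without replicate 3 (limma, adjusted p = 0.0388), after quantile normalization (0.0145) and by a spread pooled over all probe sets (0.00327). With adjustment over single-symbol probe sets it passed as well (limma, adjusted p = 0.0447). It did not pass without replicate 1 (limma, adjusted p = 0.205), without replicate 2 (0.225) or with trended and robust eBayes (0.0624).

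The other synthases and the NOS3 adaptor had the same deposited value in every replicate. Nos1, the neuronal enzyme, was at 6.02 in each replicate and below the level (limma, adjusted p = 4.06e-05). Nos2, the inducible enzyme of activated macrophages, was at 6.70 in each replicate, a raw level of 104. It was called above (limma, adjusted p = 0.00481), but not by the pooled spread (adjusted p = 0.929) and not after quantile normalization (0.371). Without replicate 1 or replicate 2 its adjusted p was 0.0763 or 0.0958.

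Nostrin encodes an adaptor that draws NOS3 from the plasma membrane into vesicles. It was at 6.29 in each replicate and below the level (limma, adjusted p = 1.18e-04), though not by the pooled spread (adjusted p = 0.245). Identical deposited values in all 3 arrays were therefore found for 4 of the 9 members, Spr, Nos1, Nos2 and Nostrin, where 25.6% of named genes show the same. For such genes the SD of 0.00 understates the error, and the calls rest on the spread that limma borrows from other probe sets.

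Leaving Gch1 aside, 5 of the 8 other members were above the level, 2 were below and 1 was neither. Over all named genes 41.6% were called in each direction. Of all 9 members, 6 reached 100 in each of the 3 arrays.

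The question whether partners follow was put to the replicate 3 difference of every gene. Only Gch1 among the 9 members was at least 2-fold higher in replicate 3, where 2.23% of named genes were, and none was at least 2-fold lower, where 4.66% were. The other 8 members ranged from -0.67 to 0.07 on the deposited values, and 3 of them (Gchfr, Qdpr and Nos3) had their lowest value in replicate 3, where 28.2% of named genes did. After quantile normalization these 8 ranged from -0.52 (Nos3) to 0.49 (Pts). Gch1 ranked 1 among 19938 genes, and it did so as well after quantile normalization (5.32), after median centring (5.17) and after subtracting the median difference of probe sets of like level (5.59). Against replicate 1 alone the difference was 4.78, and against replicate 2 alone it was 5.64. With probe sets of no gene name included, Gch1 ranked 3 of 35557, behind unnamed probe sets at 5.62 and 5.45.

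**Figure D2:**
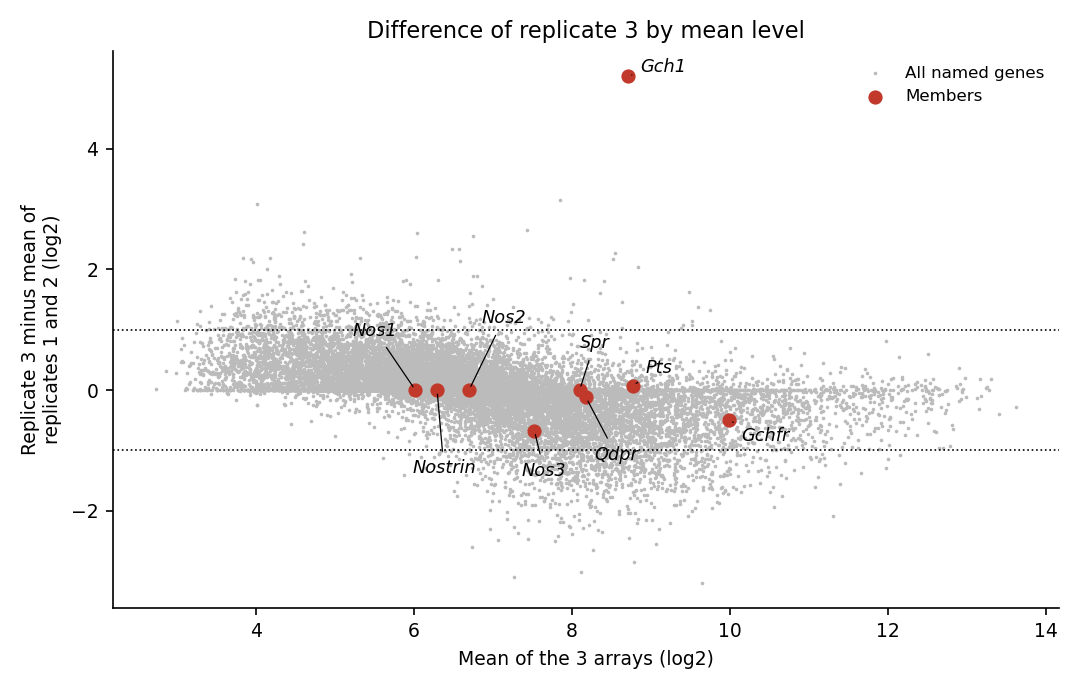
Replicate 3 minus the mean of replicates 1 and 2 (log2) against the mean of the 3 arrays (log2), for all named genes (grey) and the 9 members (red), with 2-fold differences dotted. Gch1 stands alone at 5.21, while the other members lie between -0.67 and 0.07, within the cloud of genes.

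The distance from Gch1 to the next gene was large. Gpr65, an acid-sensing receptor of leukocytes, followed with a difference of 3.15, from 9.95 in replicate 3 against 7.65 and 5.94 in replicates 2 and 1. The olfactory receptor gene Olfr1116 came next with 3.09 (6.08 against 2.95 and 3.03), and then Cd53, a leukocyte tetraspanin, with 2.66 (9.20 against 7.37 and 5.71). Differences of 8-fold or more were found for 3 genes, and of 16-fold or more for Gch1 only.

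Genes with a pattern like that of Gch1 were sought as those with the smallest Euclidean distance between deviations from the gene's own mean over the 3 arrays. The 5 nearest were Olfr1116 (distance 1.81), Vmn1r6 (2.23), AI504432 (2.37), Vmn2r99 (2.42) and Olfr118 (2.46). None came close in size, and Olfr1116, Vmn1r6 and Vmn2r99 stayed under 100 in all 3 arrays. AI504432 and Olfr118 passed 100 in replicate 3 only, at 8.04 and 8.13. The 1190 olfactory and vomeronasal receptor genes of the array had a median replicate 3 difference of 0.30.

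Around the members, nearly all enzymes that recycle the cofactor or supply its precursor were above the level, and none was past 2-fold in replicate 3. Pcbd1, which dehydrates the hydroxylated cofactor, measured 7.78 in replicate 3, against 8.65 and 8.55 in replicates 2 and 1. Its paralog Pcbd2 (10.96 against 10.82 and 11.06) and the carbonyl reductase Cbr1 (7.26 against 7.66 and 7.66) were also above, so that all 3 measured genes of regeneration and salvage passed. Of 6 genes of GTP supply 5 were above the level and 1, Impdh1 at 6.63 in each replicate, was below it, though not by the pooled spread. Of all named genes 41.6% were called in each direction. The GTP-forming kinase gene Nme2 was at 9.32 in replicate 3, against 9.64 and 10.59, and Gmps was at 10.04, against 10.11 and 10.12. Guk1, Nme1 and Hprt were above the level as well, with replicate 3 differences from -0.27 to 0.00.

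For the other enzymes that use BH4, most probe sets read under the level. Of 4 measured hydroxylases 3 were below the level and none passed above it, where 41.6% of named genes were called in each direction. Tph1, of serotonin synthesis, measured 5.54 in replicate 3 and 4.68 in both others, and Tph2 5.00 and 4.97. Agmo, which cleaves ether lipids, was at 4.79 throughout. Th, the tyrosine hydroxylase of catecholamine cells, did not pass in either direction at 6.90 in replicate 3 and 6.24 in both others.

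Genes that handle arginine, the substrate of NO synthase, held 3 of the 4 genes of the pathway lists past 2-fold in replicate 3. Of the 8 measured, 1 was at least 2-fold higher and 2 were at least 2-fold lower. These shares were 2.23% and 4.66% over all named genes. Ddah1 and Ddah2 break down methylarginines that inhibit the synthases, and both were above the level. Ddah1 measured 8.47 in replicate 3, against 10.73 and 10.11 in replicates 2 and 1, a difference of -1.95. Ddah2 measured 9.56 in replicate 3, against 10.41 and 10.92, a difference of -1.11 that became -0.78 after quantile normalization. The arginine transporter gene Slc7a2, which passed in neither direction, was at 6.65 in replicate 3, against 5.62 in both others, with a difference of 1.03 that became 0.96 after quantile normalization. The main endothelial transporter gene Slc7a1 was steady, at 7.83 in replicate 3 and 7.87 in both others, and above the level. Of 8 measured genes of this list 5 were above and 2 below, the arginases Arg1 (6.09 in each replicate) and Arg2 (5.54 against 5.49 and 5.49). Arg1 was not below by the pooled spread. The share of named genes called by the main test was 41.6% in each direction. Asl was above the level at 7.40 to 7.42.

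Most genes on the list of NOS3 regulators were above the level. The list is not confined to regulators of the NOS3 protein, since it also holds Klf2, Klf4, Nos1ap and Dynll1. Of 12 measured genes 9 were above the level and none was below, where 41.6% of named genes were called in each direction. Nos1ap is counted above through 1 of its 2 probe sets, while their mean (6.64 in replicate 3 and 6.42 in both others) lies under the level, and it did not pass by the pooled spread. Cav1, the caveolar coat protein that restrains NOS3, measured 9.20 in replicate 3, against 9.43 and 10.51 in replicates 2 and 1. The chaperone gene Hsp90aa1 (11.85 against 11.86 and 11.89) and the calmodulin genes Calm2 (12.45 against 12.60 and 12.62) and Calm3 (10.30 against 10.59 and 10.59) varied little. Akt1, whose kinase activates NOS3, was at 7.82 in each replicate and Nosip at 7.29. Zdhhc21, a palmitoyltransferase of NOS3, did not pass and was the only gene of the list past 2-fold, at 6.24 in replicate 3, against 6.87 and 7.96. Its replicate 3 difference was -1.18, with replicates 2 and 1 themselves more than 1 log2 unit apart.

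Probe sets of the NO receptor itself read under the level. Guanylate cyclase subunits Gucy1a1 (6.38 in replicate 3, 6.41 in both others), Gucy1a2 (5.77 throughout) and Gucy1b1 (5.16 against 5.12 and 5.12) were below the level, Gucy1a1 not by the pooled spread. The cGMP-dependent kinase genes Prkg1 (5.71 against 5.69 and 5.71) and Prkg2 (5.13 against 4.58 and 4.58) and the phosphodiesterase gene Pde5a (5.26 against 5.29 and 5.26) were below as well, for 6 of 8 measured genes. Vasp, a substrate of the kinases, and Adh5, which removes nitrosoglutathione, were the 2 genes above. Among all named genes 41.6% were called in each direction. No gene of this list was past 2-fold in replicate 3.

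Genes that inflammatory cytokines induce together with Gch1 in other settings were not past 2-fold in replicate 3. Of 13 measured genes 6 were above the level and 2 below, against 3 and 3 by the pooled spread. The main test called 41.6% of named genes in each direction. Socs3 is counted above through 1 of its 2 probe sets, while their mean of 6.63 lies under the level, and it did not pass by the pooled spread either. Irf1 measured 6.51 in replicate 3 and 6.66 in both others, Irf8 7.25 against 7.17 and 7.25, and Icam1 7.37 against 7.55 and 7.37. Cxcl9 measured 6.29 in replicate 3 and 5.54 in both others, the largest difference of the list at 0.75, and Cxcl10 6.73 and 6.30. Gbp3 measured 5.97 in replicates 3 and 2 and 5.78 in replicate 1. The cytokine gene Il1b measured 7.05 in replicate 3, against 6.58 and 6.18, and Tnf 6.55, against 6.20 in both others. In all, 7 of the 13 genes had their highest value in replicate 3, where 37.9% of named genes did, and 1 had its lowest there. The median difference over the list was 0.19, against 0.00 over all named genes, and it was 0.35 after quantile normalization and 0.28 after subtraction at like level.

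**Figure D3:**
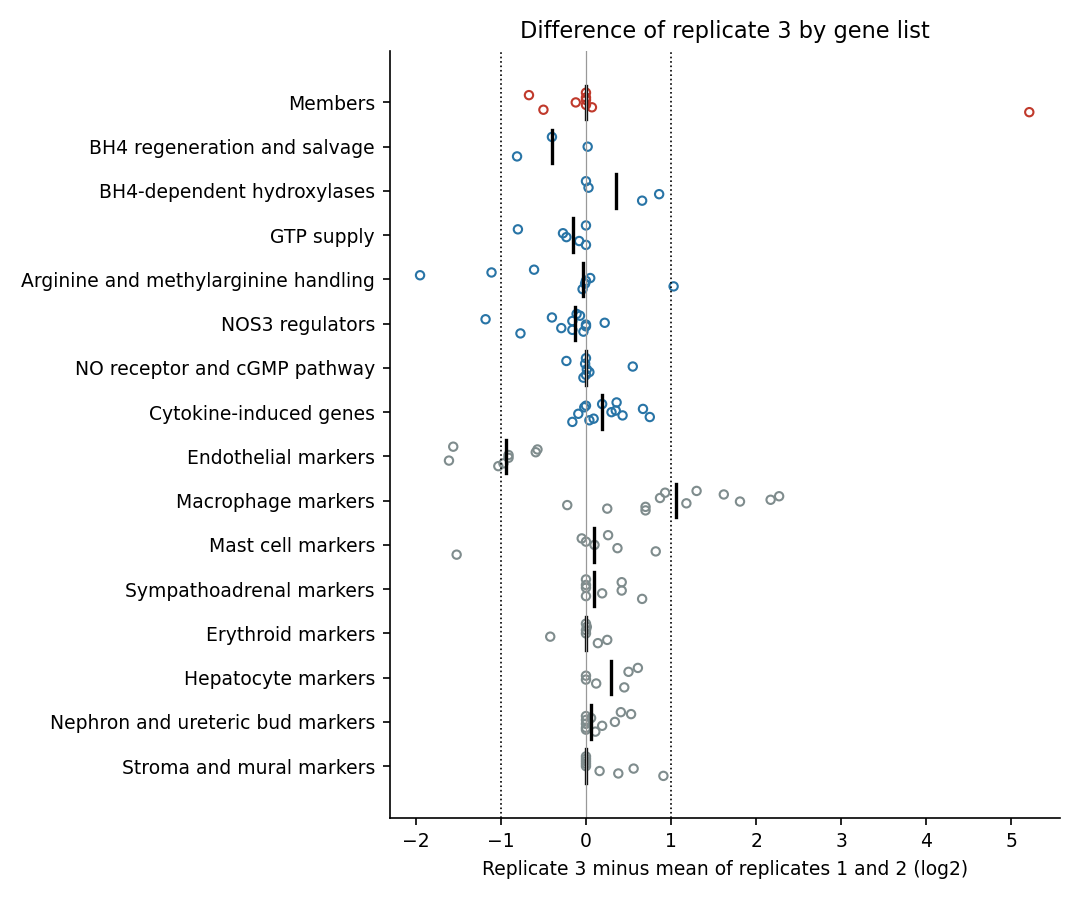
Replicate 3 minus the mean of replicates 1 and 2 (log2) for each measured gene (circles) with the list median (black bar), for the 9 members (red), 7 pathway lists (blue) and 8 lists of cell type markers (grey), with 2-fold differences dotted. Gch1 at 5.21 lies outside every list, the endothelial median is -0.94 and the macrophage median is 1.06.

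Replicate 3 also differed from the others as an array. Its log2 values had an SD of 1.84, against 2.06 and 2.08 in replicates 2 and 1, and across probe sets it correlated with them at 0.927 and 0.923, where replicates 1 and 2 correlated at 0.976 (Pearson, probe sets are not independent). Probe sets of the lowest twentieth of levels had a median replicate 3 difference of 0.50, and those around the level of Nos3 and Spr had medians from -0.04 to -0.18. After subtraction of the median at like level the members stood at -0.20 (Gchfr), 0.45 (Pts), 0.18 (Spr), 0.16 (Qdpr), -0.04 (Nos1), 0.00 (Nos2), -0.63 (Nos3) and -0.02 (Nostrin).

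Markers of endothelium and most markers of macrophages moved in opposite directions in replicate 3. All 8 endothelial markers had their lowest value there, where 28.2% of named genes did. Over all arrays 7 of the 8 were above the level, where 41.6% of named genes were. Past 2-fold lower were 3 of them, where 4.66% of named genes were. As this list was chosen with earlier results of these data known, its counts are descriptions. The list's median difference of -0.94 became -0.65 after quantile normalization, when Pecam1, at -0.68, was no longer past 2-fold. The summed raw level of the markers was 7871 in replicate 3, against 13182 and 15334 in replicates 2 and 1. Over all named genes the sum was 4673130, against 5387380 and 5635242. Pecam1 measured 9.40 against 10.37 and 10.49, Kdr 8.82 against 10.17 and 10.69, and Esam 6.77 against 8.26 and 8.40. Cdh5 measured 10.43 against 11.23 and 11.57, and Tek, whose promoter drives the reporter, 10.13 against 10.97 and 11.12. Nos3, Gchfr, Ddah1 and Ddah2 had their lowest values in the same array, and so did many other genes, among them Qdpr, Pcbd1 and Cbr1. A link of these genes with the endothelial markers was not tested. In bulk RNA fewer cells of a type and less RNA per cell cannot be told apart.

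Of 12 macrophage markers 9 had their highest value in replicate 3 and 6 were at least 2-fold higher there. Over all named genes these shares were 37.9% and 2.23%. The list was chosen with earlier results of these data known, so these counts are descriptions. Their summed raw level was 6398 in replicate 3, against 3780 in replicate 2 and 1443 in replicate 1. Aif1 measured 10.06 in replicate 3, against 8.34 and 7.24 in replicates 2 and 1, and Mrc1 9.97, against 9.08 and 6.51. The other markers past 2-fold had replicate 3 differences of 1.18 (C1qb), 1.81 (C1qc), 1.62 (Tyrobp) and 1.30 (Lyz2). The receptor gene Csf1r measured 7.41 against 6.98 and 6.45, and Cd68 8.82 against 8.95 and 7.30. By the main test 1 of the 12 was above the level, and by the pooled spread 8 were. The main test called 41.6% of named genes above. No marker is at 0 on an array, and the lowest values of the list in replicate 3 were those of C1qa and Adgre1, both at 6.42. In replicates 2 and 1 C1qa measured 6.88 and 6.40, and Adgre1 6.74 and 5.62, so both were highest in replicate 2. Replicate 2 had the higher macrophage sum of the other two replicates and the lower Gch1 value. The part of macrophages in the Gch1 value of replicate 3 was not tested.

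Mast cells, catecholamine cells and hepatocytes are also known for BH4 synthesis. Of 7 mast cell markers 6 were below the level, against 4 by the pooled spread. For comparison, 41.6% of named genes were called in each direction by the main test. Cpa3 was at 5.78 in replicate 3 and 4.96 in both others, Mcpt4 at 5.30 and 4.93, Tpsb2 at 6.33 and 6.23, and Fcer1a at 4.45 throughout. Kit, which endothelial cells can also express, was past 2-fold lower, at 7.55 in replicate 3 against 8.86 and 9.28. Of 8 sympathoadrenal markers 4 passed in neither direction and 3 were below (2 by the pooled spread). Chga at 7.02 throughout was above, though not by the pooled spread. Dbh was at 5.07 in each replicate, Ddc at 6.47 in replicate 3 against 6.42 and 6.16, and Slc18a1 at 6.57 against 6.15 in both others. Of 6 hepatocyte markers 4 were below, including Alb at 5.90 against 5.47 and 5.43, Afp at 5.53 against 5.40 in both others and Ttr at 5.84 throughout. Apoa1 was above at 6.72 throughout, though not by the pooled spread.

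Of 7 erythroid markers 3 were above the level and 3 below, against 1 and 3 by the pooled spread. By the main test 41.6% of named genes were called in each direction. Hbb-bh1 was at 5.19 in replicate 3 against 5.08 and 5.01, and Hba-x at 7.64 against 7.39 in both others. Alas2 was at 6.85 against 7.48 and 7.06, and Epor at 6.86 throughout. Of 11 markers of nephron and ureteric bud 4 were above and 6 below, against 3 and 4 by the pooled spread. Six2 was at 7.44 in replicates 3 and 2 and 7.22 in replicate 1, Wnt4 at 7.29 in replicate 3 against 7.10 in both others, and Cited1 and Eya1 at 7.28 and 6.27 throughout. Of 9 markers of stroma and mural cells 3 were above and 5 below, against 2 and 3 by the pooled spread. Tbx18 was at 5.25 in replicate 3 against 4.87 in both others, Aldh1a2 at 7.69 against 7.54 and Pdgfra at 6.78 against 6.22. Foxd1, of stromal progenitors, was at 8.48 in replicate 3 against 7.68 and 7.46, a difference of 0.91 that became 1.25 after quantile normalization and 1.09 after subtraction at like level. On the deposited values no marker of the sympathoadrenal, hepatocyte, erythroid, nephron or stromal lists was past 2-fold in replicate 3, and their median differences ranged from 0.00 to 0.29.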

How the data were processed

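RNA of sorted Tie2-GFP kidney endothelial cells was amplified in 1 round with the NuGEN WT-Ovation Pico kit, labelled with biotin and placed on 3 arrays of the type Affymetrix Mouse Gene 1.0 ST, 1 for each pool. The authors deposited log2 expression values, 1 for each of 35557 probe sets and array. The submitters' processing notes name Expression Console. For the algorithm that summarized the probes, a name was not given in the sources used here, and for their own analysis the authors describe RMA in GeneSpring. Arrays give no read depth, and their number limits the precision.

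Gene names came from the platform annotation, in which 21789 had a single gene symbol, 1621 had several and 12147 were not listed. Symbols were updated through RefSeq's gene table of GRCm38.p6, which held 21698 of the 21789. Several probe sets of a gene were averaged for its values and the replicate 3 difference, and a gene was called above the level where any probe set was and below where all were. Some genes of the pathway and marker lists are not reported here.

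The mean of the 3 arrays was tested against a raw level of 100, one-sided in each direction, with limma 3.58.1 in R 4.3.3 (eBayes) and Benjamini-Hochberg adjustment over all probe sets at 0.05. The test was checked on simulated data drawn without identical values between arrays. In the deposited data 55.9% of probe sets share a value in at least 2 arrays, and the check does not cover these. The difference of replicate 3 from the mean of replicates 1 and 2 has no test, since all arrays belong to 1 group, and is set beside the same difference over all named genes, computed in Python 3.11.15. The members, the pathway lists and the lists of cell type markers were chosen with earlier results of these data known. Named were all members, the first 6 measured genes of each pathway list, the first 4 of each marker list, genes of these lists past 2-fold, the 5 genes nearest to Gch1 and the 3 next to it by the replicate 3 difference. Other genes were named after their values were seen. The alternatives were a pooled spread, levels of 50 and 200, quantile normalization, median centring, subtraction of the median difference in 20 bins of like level, trended and robust eBayes, adjustment over single-symbol probe sets, a 1.5-fold mark and leaving out each replicate.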

Additional observations from a re-analysis of the deposited data

How the results depend on the processing

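Gch1 kept the first rank among named genes by the replicate 3 difference under all alternatives tried for it. The single members' level calls were recomputed 72 times, including tests against levels of 50 and 200. Of these 58 kept their direction and side of the threshold, 5 lost the call, 5 gained it and 4 changed sign. Tests at the other levels ask another question, so the tally is not one of the level of 100 alone. The changes of sign came with another level: the mean minus the level was 0.38 for Nos1 and 0.65 for Nostrin at a level of 50, and -0.95 for Nos2 and -0.12 for Nos3 at a level of 200. Of the members other than Gch1, 5 were above the level of 100 and 8 above a level of 50, with 4 to 6 when 1 replicate was left out. The 2 below became 1 with a pooled spread and 0 at a level of 50, and stayed 2 without any 1 replicate.

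Over all probe sets 12629 were above the level, against 21712 at 50, 5510 at 200 and 7712 to 11714 without 1 replicate, the fewest without replicate 2. Below the level were 14826, against 5305 at 50, 22955 at 200, 8906 when only single-symbol probe sets were tested, and 8738 to 15198 without 1 replicate (9023 without replicate 1 and 8738 without replicate 2). Named genes at least 2-fold higher in replicate 3 numbered 444, against 265 after subtraction of the median at like level and 1814 at a 1.5-fold mark. Those at least 2-fold lower numbered 930, against 543 after quantile normalization, 582 after subtraction at like level and 2237 at a 1.5-fold mark, where 1 member, Nos3, was among them and otherwise 0 were. Every member has 1 probe set, so that probe sets could not be taken one by one. No paired analysis was possible because the series has a single group. With 3 arrays, identical values in 19.7% of probe sets and no second group, small differences between replicates have no error of their own.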
